A study of Mus musculus with 20 samples.

Results

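Expression of 9 complement genes was measured in the left hemi-brain of aged mice that carry human APOE. The genes were C1qa, C1qb, C1qc, C3, C4b, C3ar1, C5ar1, Serping1 and Cd59a, taken by symbol from the deposited table of 55291 gene symbols, and all 9 passed the filter on low counts among 21041 genes that did. The mice were females of the C57bl/6 strain at 18 months of age, with 5 in each of 4 groups and 1 RNA sequencing library per mouse. In every group both copies of mouse Apoe had been replaced by a human allele that the mouse promoter drives, so no group with mouse Apoe was compared. APOE2, APOE3 and APOE4 carried 2 copies of the allele of that name. A further group is named APOE4D in the labels, which give its genotype as APOE4 and do not say what the D stands for, and it was kept apart.

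Complement is a cascade of plasma and tissue proteins that tags surfaces for removal. C1q, a complex built from 3 chains, starts the classical pathway, and its proteases cleave C4 and C2 so that C3 is activated. Fragments of C3 and C5 act on receptors on myeloid cells, while soluble and membrane inhibitors hold the cascade back. In the brain, microglia make most of the C1q, astrocytes are a main source of C3 and C4, and complement is known for its part in the pruning of synapses.

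The libraries held 32404258 to 51960932 reads assigned to genes, and levels are given in CPM, the reads of a gene per 1000000 reads assigned to genes, scaled by the trimmed mean of M values (TMM). All 20 mice had reads at the Apoe locus (33.8 to 46.8 CPM), which cannot show which human allele a mouse carries. Xist, an RNA made from the inactive X chromosome, had 48 reads in the APOE3 mouse F61N and 12151 to 24959 in the other 19 mice, all labelled female. F61N therefore stands apart from its label, and the calls that rest on APOE3 and bear on the members are given with and without it. Markers of neurons summed to 6639 to 7539 CPM, those of astrocytes to 4389 to 4972 CPM and those of oligodendrocytes to 4993 to 6819 CPM per mouse, and those of neutrophils and monocytes to 0.933 to 3.97 CPM. In such bulk tissue, fewer cells of a type and less RNA per cell cannot be told apart. Mice whose IDs begin with FH make up 2 of the 5 in APOE2 and in APOE4, 3 of the 5 in APOE4D and none in APOE3, and the labels do not say what this marks.

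C1qa, C1qb and C1qc lie side by side on chromosome 4 of GRCm38, C1qb from 136880126 to 136886200, C1qc from 136889801 to 136892936 and C1qa from 136895916 to 136898844. Cd59a, the other member for which groups separated, lies on chromosome 2 from 104095753 to 104115410. The RefSeq promoter windows (GRCm38.p6, 250 bases before to 50 after the start) of C1qb, at chr4:136886151-136886450 on the minus strand, of C1qc, at chr4:136892865-136893164 on the minus strand, and of Cd59a, at chr2:104095551-104095850 on the plus strand, are shown because these genes carry the 2 patterns described below. Capitals mark AGGAAG on either strand (CTTCCT where it is on the other strand), the purine-rich core bound by ETS factors such as the myeloid regulator PU.1.
C1qb: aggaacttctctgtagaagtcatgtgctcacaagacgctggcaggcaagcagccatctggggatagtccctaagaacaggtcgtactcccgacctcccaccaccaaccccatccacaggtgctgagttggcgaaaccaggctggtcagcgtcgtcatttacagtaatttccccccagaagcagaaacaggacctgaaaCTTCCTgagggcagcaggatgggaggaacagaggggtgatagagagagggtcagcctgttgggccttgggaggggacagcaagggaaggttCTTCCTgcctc
C1qc: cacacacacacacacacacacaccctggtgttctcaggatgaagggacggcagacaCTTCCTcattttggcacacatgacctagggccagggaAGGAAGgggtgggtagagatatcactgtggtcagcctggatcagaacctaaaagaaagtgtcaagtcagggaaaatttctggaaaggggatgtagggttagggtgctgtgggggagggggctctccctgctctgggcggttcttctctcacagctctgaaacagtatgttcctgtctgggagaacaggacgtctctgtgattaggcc
Cd59a: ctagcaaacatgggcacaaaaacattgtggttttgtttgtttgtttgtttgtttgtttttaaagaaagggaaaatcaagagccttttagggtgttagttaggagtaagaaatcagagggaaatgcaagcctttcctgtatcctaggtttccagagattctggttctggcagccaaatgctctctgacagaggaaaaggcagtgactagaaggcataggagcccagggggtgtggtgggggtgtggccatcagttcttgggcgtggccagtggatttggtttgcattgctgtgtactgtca
The motif was matched 52 bases before and 40 after the start of C1qb (positions -52 and 40) and at positions -194 and -157 of C1qc, and was not in the window of Cd59a. Of the 6 members with a window in the table, 4 held it (C1qb, C1qc, C3ar1 and C5ar1), as did 35.4% of 32851 mouse promoter windows of the same length. A match of 6 letters this common is a description of the sequence only.

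C1q transcripts were highest in APOE3. C1qa, the A chain, stood at 61.4, 79.6, 84.9, 87.9 and 87.3 CPM in the APOE3 mice F61N, F37N, F39N, F10N and F64M. In APOE4 the mice F95K, F78N, F58M, FH78 and FH66 had 62.5, 70.0, 67.6, 59.2 and 56.2 CPM. Every APOE3 mouse other than F61N was thus above every APOE4 mouse, while F61N fell among them. The 5 APOE2 mice FH124, F74M, F42N, FH111 and F35J had 71.8, 62.9, 59.8, 64.4 and 66.9 CPM of C1qa, and the 5 APOE4D mice F12M, FH85, FH68, F19M and FH51 had 54.4, 68.5, 59.1, 55.9 and 61.02 CPM. These 2 groups covered about the same range as APOE4.

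C1qc, the C chain, separated the same 4 APOE3 mice from APOE4 and APOE2. It stood at 53.4 CPM in F61N and at 68.7, 69.2, 75.7 and 69.0 CPM in the other APOE3 mice F37N, F39N, F10N and F64M. In APOE4 it was 53.3, 58.4, 58.8, 50.8 and 51.8 CPM in F95K, F78N, F58M, FH78 and FH66. In APOE2 it was 59.1, 51.0, 50.5, 53.6 and 58.4 CPM in FH124, F74M, F42N, FH111 and F35J. The highest of these APOE4 and APOE2 values lay below the lowest of the 4 APOE3 mice other than F61N. C1qb, the B chain, ranged from 60.0 to 88.6 CPM in APOE3, 59.1 to 73.8 CPM in APOE4, 57.3 to 69.8 CPM in APOE2 and 56.2 to 69.1 CPM in APOE4D. Summed over the 3 chains, F10N, F64M, F39N and F37N ranked 1 to 4 of the 20 mice with 226.7 to 249.2 CPM, the next mouse was F78N of APOE4 at 202.2 CPM, and F61N ranked 16 with 174.8 CPM.

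**Figure D1:**
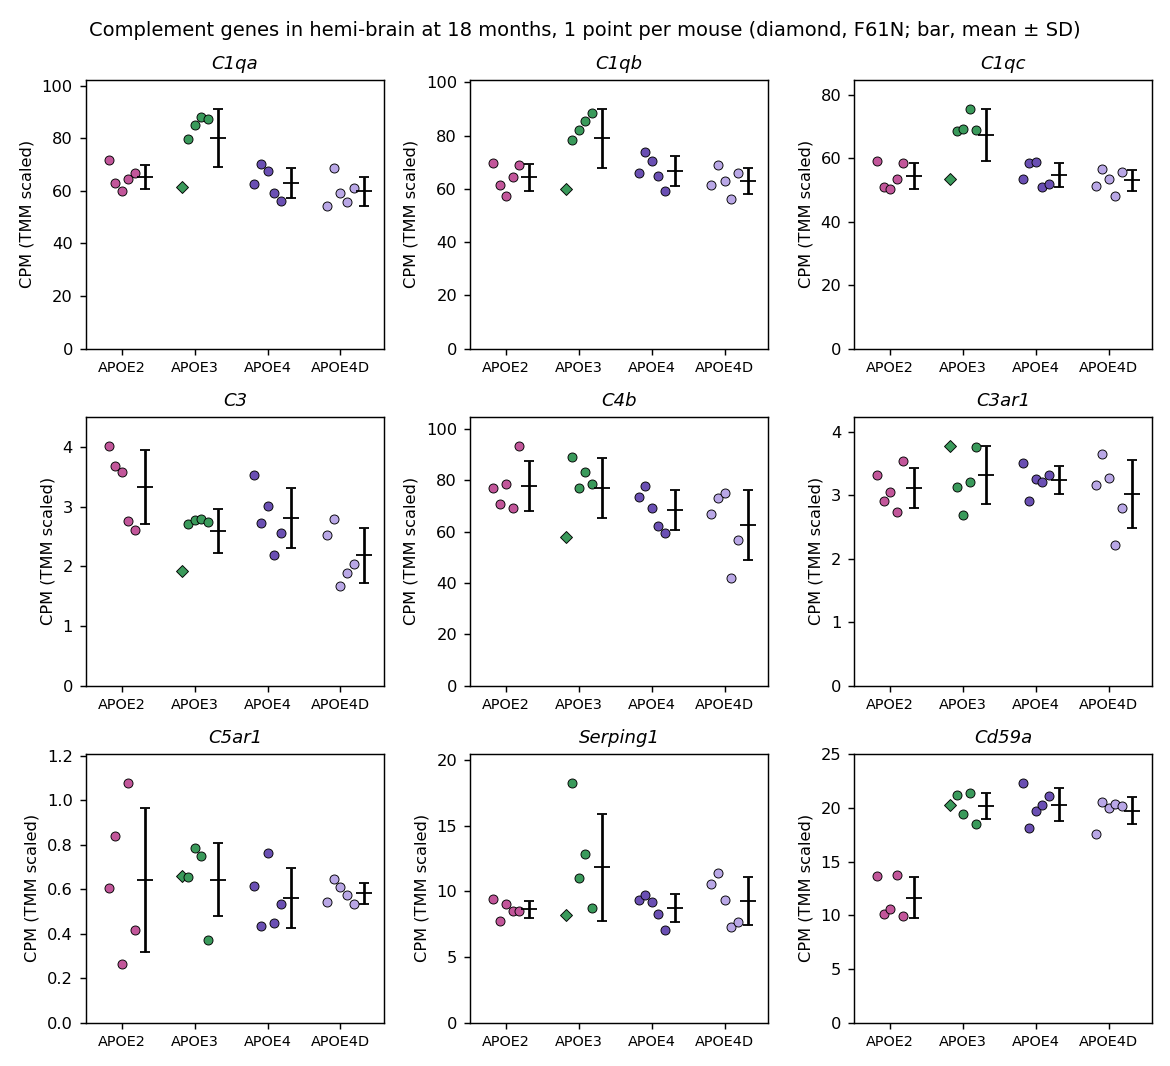
Level of each of the 9 complement genes in CPM (TMM scaled, axis from 0) in each of the 20 mice, by group. Points are mice, the diamond is F61N, and the bar is the group mean ± SD (n = 5). The C1q chains are high in 4 of the 5 APOE3 mice, and Cd59a is low in all 5 APOE2 mice (9.98 to 13.7 CPM) against 17.6 to 22.3 CPM in the other 15.

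APOE4 was compared with APOE3 to ask which members differ between the allele that raises the risk of Alzheimer's disease and the neutral one. C1qa fell by 21.6%, from 80.2 ± 11.0 CPM in APOE3 to 63.1 ± 5.71 CPM in APOE4 (SD, n = 5 each), a log2 fold change of -0.35 (standard error 0.089, edgeR adjusted p = 0.0112). C1qc fell by 19%, from 67.2 ± 8.23 to 54.6 ± 3.74 CPM, a log2 fold change of -0.30 (standard error 0.075, edgeR adjusted p = 0.00777). C1qb was at 78.9 ± 11.3 and 66.8 ± 5.61 CPM, with a log2 fold change of -0.25 that did not pass (standard error 0.093, edgeR adjusted p = 0.074). Thus 2 of the 9 members were called, both lower in APOE4, or 22.2%, while 21% of the 21022 genes tested were called in either direction, 10.2% lower and 10.8% higher. The share of members called was near that of all genes, and the count is no result about the members. For none of the 9 members did the groups not overlap, as they did for 11.4% of all genes.

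The C1q difference depended on which mice were used. Without F61N, C1qa had a log2 fold change of -0.42 (edgeR adjusted p = 1.72e-05), C1qc one of -0.37 (edgeR adjusted p = 2.57e-05) and C1qb one of -0.32 that now passed (edgeR adjusted p = 0.000485). Of all genes, 27.1% were then called. With the FH mice left out, C1qa was at -0.27 (edgeR adjusted p = 0.11) and C1qc at -0.25 (edgeR adjusted p = 0.104), and neither passed. Both calls were also lost once fold changes were corrected for transcript length and GC content, at -0.15 for C1qa (edgeR adjusted p = 0.204) and -0.18 for C1qc (edgeR adjusted p = 0.0647).

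In APOE2, the allele linked with protection, 1 of the 3 chains was called lower than in APOE3. C1qc fell by 18.9%, to 54.5 ± 4.06 CPM (SD, n = 5), a log2 fold change of -0.30 (standard error 0.075, edgeR adjusted p = 0.023). C1qa at 65.1 ± 4.52 CPM and C1qb at 64.3 ± 5.19 CPM had log2 fold changes of -0.30 and -0.29 with edgeR adjusted p values of 0.0649 and 0.0834, and did not pass. Of the 9 members 2 were called, C1qc and Cd59a, both lower in APOE2, or 22.2%, against 4.89% of all genes called in either direction, 3.05% called lower and 1.84% called higher. Without F61N all 3 chains passed, C1qa at -0.38 (edgeR adjusted p = 0.000194), C1qb at -0.37 (edgeR adjusted p = 0.000426) and C1qc at -0.37 (edgeR adjusted p = 6.99e-05). All genes called then rose to 11.9%, with 1423 higher and 1110 lower in APOE2, where with F61N 387 were higher and 642 lower. The C1qc call was lost with the series of the animal IDs in the fit, at -0.29 (edgeR adjusted p = 0.0712), and without any of F74M, F42N, FH111, F39N or F10N, where the edgeR adjusted p reached 0.081.

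C1q did not separate APOE2 from APOE4. The log2 fold changes of APOE2 against APOE4 were 0.05 for C1qa (95% interval -0.12 to 0.23), -0.05 for C1qb (-0.23 to 0.13) and 0.00 for C1qc (-0.15 to 0.15). For C1qa and C1qc these intervals leave out differences as large as those from APOE3. They were taken from the normal distribution and are narrower than the edgeR test would give. For C1qb the lower end lay close to the -0.25 of APOE4 against APOE3, so such a difference is not left out. APOE4D was lower than APOE3 in all 3 chains, at 59.8 ± 5.54, 63.1 ± 4.87 and 53.0 ± 3.4 CPM (SD, n = 5). Its log2 fold changes were -0.43 for C1qa (edgeR adjusted p = 0.00548), -0.32 for C1qb (edgeR adjusted p = 0.03) and -0.34 for C1qc (edgeR adjusted p = 0.00416). With 3 of 9 members called, all lower, the share was 33.3% beside 8.41% of all genes in either direction, 4.49% lower and 3.92% higher. The 3 called are chains of 1 complex whose levels moved together, so they are not 3 separate results. None of the other 6 members passed. No member had groups without overlap here, beside 6.11% of all genes. The comparisons with APOE3 share its 5 mice, so they are not separate evidence that APOE3 is high. The call of C1qb was lost under 4 of 10 other settings, among them the FH mice left out (-0.43, edgeR adjusted p = 0.0998), and without any of F37N, F39N, F10N, F64M, F12M, FH68 or F19M (edgeR adjusted p up to 0.0867). Those of C1qa and C1qc were kept under all 10 settings and with each library left out, and without F61N they were at -0.51 (edgeR adjusted p = 2.58e-05) and -0.41 (edgeR adjusted p = 7.7e-06), with C1qb at -0.41 (edgeR adjusted p = 0.000208). Of all genes, 15.7% were called without F61N. Of the 31 genes tested within 1 Mb of C1qa, 3 were higher and 9 lower in APOE4 than in APOE3, or 38.7% beside the 21% of all genes. C1qc was among the 9, and C1qb among the 31. The share called was 19.4% in APOE2 against APOE3, C1qc included, beside 4.89% of all genes. In APOE4D against APOE3 it was 15.2%, C1qb and C1qc included, beside 8.41%.

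Marker genes of the cells that make C1q were set beside it. The 12 microglia markers, such as P2ry12 and Tmem119, summed to 455.6 to 486.4 CPM in APOE3, 446.5 to 486.8 CPM in APOE4, 396.9 to 477.5 CPM in APOE2 and 433.9 to 476.9 CPM in APOE4D. The sums of APOE3 and APOE4 thus covered nearly the same range, and F61N had the lowest sum of APOE3. Of the 12 markers, 1 was called in APOE4 against APOE3, or 8.33% beside 21% of all genes. It was Gpr34, a purinergic-type receptor of microglia, which was higher in APOE4 (log2 fold change 0.37, edgeR adjusted p = 0.00042). The median of the 12 was -0.01. None was called in APOE2 against APOE3, where 10 of 12 were below 0 with a median of -0.09. In APOE4D against APOE3, Gpr34 was higher (0.27, edgeR adjusted p = 0.011) and Tyrobp, a signalling adaptor of myeloid cells, was lower (-0.48, edgeR adjusted p = 0.00697). These were 16.7% of the 12 markers, beside 8.41% of all genes.

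Border macrophages also make C1q. Their 7 markers, such as Mrc1 and Cd163, summed to 14.2 to 21.9 CPM in APOE3, where F37N and F10N were highest with 21.9 and 18.1 CPM, and to 12.6 to 15.3 CPM in APOE4. None of the 7 was called in APOE4 against APOE3 (6 of 7 below 0, median -0.36) or in APOE2 against APOE3 (7 of 7 below 0, median -0.24), and their part in the C1q difference was not tested. The 4 blood markers were all called lower in APOE4 than in APOE3 (median log2 fold change -1.38), beside 10.2% of all genes called lower. Their sums were 63.5 to 101.9 CPM against 131.3 to 350.7 CPM. In APOE2 against APOE3 all 4 were below 0 (median -1.17), and 1 of 4 was called lower, beside 3.05% of all genes. They were also below 0 in APOE4D against APOE3 (median -0.94, none called). Neutrophil and monocyte markers had medians of -1.11 in APOE4 against APOE3 (0 of 4 called) and -0.28 in APOE2 against APOE3 (0 of 4 called). In APOE4D against APOE3 the median was -1.23, and 1 of 3 was called lower, beside 4.49% of all genes. The part of these cells was not tested. The highest blood sum was in F61N, the APOE3 mouse with the lowest C1q. The next highest, 327.9 CPM, was in F37N, an APOE3 mouse with high C1q. The part of blood was not tested.

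**Figure D2:**
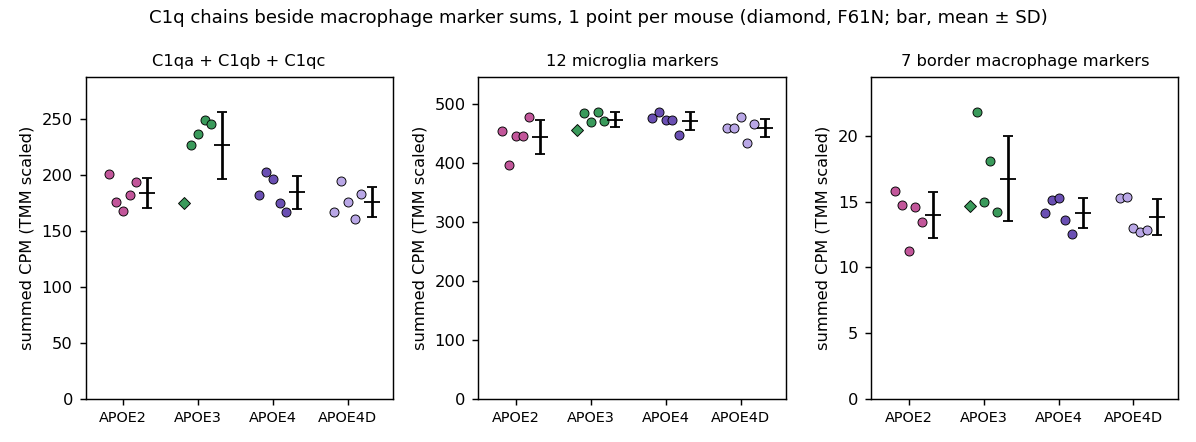
Summed level of the 3 C1q chains, of 12 microglia markers and of 7 border macrophage markers in CPM (TMM scaled, axes from 0) in each of the 20 mice; the diamond is F61N and bars are the mean ± SD (n = 5). Of the APOE3 mice, 4 stand above all others in C1q (226.7 CPM or more). Their microglia sums lie within the range of APOE4, but those of F37N and F10N lie above every APOE2 and APOE4D mouse.

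The 3 chains moved together from mouse to mouse. Over the 20 mice the Pearson correlation of log2 CPM was 0.95 for C1qa with C1qb, 0.96 for C1qa with C1qc and 0.95 for C1qb with C1qc, and 0.96, 0.92 and 0.93 on the deviations from the group means. The points share their libraries and depth, and these values are given as a description. Reads of C1qb per read of C1qa were 0.958 to 1.13, and those of C1qc per read of C1qa 0.790 to 0.943. Per kb of transcript, the scale on which genes can be set side by side, C1qa averaged 61.7 CPM per kb, C1qc 31.0 and C1qb 27.0. The other members were lower, C4b at 13.2, Cd59a at 10.5, Serping1 at 5.24, C3ar1 at 0.633, C3 at 0.529 and C5ar1 at 0.239 CPM per kb. Among 14048 genes, those most like C1qa over the 20 mice were Aldh2, a mitochondrial aldehyde dehydrogenase (Pearson 0.89), and Cd52, a leukocyte surface glycoprotein (0.88), and those most like C1qc were Lmf2 (0.90) and Adipor1, an adiponectin receptor (0.89).

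C4b, the fourth component of the classical pathway (chromosome 17, 34728139 to 34743902), passed the test in none of the 6 comparisons. It averaged 77.8 ± 9.68 CPM in APOE2, 77.3 ± 11.7 CPM in APOE3, 68.5 ± 7.72 CPM in APOE4 and 62.8 ± 13.7 CPM in APOE4D (SD, n = 5 each). No neighbours in this order differed beyond their spread. The lowest mice were F19M and FH51 of APOE4D at 41.9 and 57.0 CPM, followed by F61N of APOE3 at 58.1 CPM. The largest difference, APOE2 against APOE4D, was a log2 fold change of 0.31 (standard error 0.148, edgeR adjusted p = 0.33), or 0.19 without F19M (edgeR adjusted p = 0.547) and 0.58 without the FH mice (edgeR adjusted p = 0.428). C4b shares sequence with its neighbour copy C4a, so the counts of both are uncertain, and 94.9% to 97.9% of the reads of the pair were assigned to C4b. The genes most like C4b were Rpusd4 (Pearson 0.83), Parvg, a focal adhesion protein of blood cells (0.79), and Gfap, the intermediate filament of astrocytes (0.79).

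C3, on which all pathways converge (chromosome 17, 57203967 to 57228136), was low, with 63 to 179 reads per library. It stood at 4.02, 3.69, 3.59, 2.75 and 2.60 CPM in the APOE2 mice FH124, F74M, F42N, FH111 and F35J. In APOE4D it was 2.53, 2.79, 1.67, 1.89 and 2.05 CPM in F12M, FH85, FH68, F19M and FH51. The 3 highest APOE2 mice were above all of APOE4D, and the other 2 lay inside its upper end. C3 was 3.33 ± 0.619 CPM in APOE2 and 2.19 ± 0.463 CPM in APOE4D (SD, n = 5 each), a log2 fold change of 0.61 upward in APOE2 (standard error 0.153, edgeR adjusted p = 0.0166). This and a lower Cd59a were the 2 of 9 members called in APOE2 against APOE4D, or 22.2%, while 4.12% of all genes were called, 1.86% higher and 2.26% lower. Gfap, the astrocyte filament gene, was also higher in APOE2 than in APOE4D (log2 fold change 0.33, edgeR adjusted p = 0.0336). It was the only 1 of the 8 astrocyte markers called, and 4 of the 8 were below 0, with a median of -0.01. The 8 markers summed to 4473 to 4712 and 4416 to 4751 CPM, and the part of astrocytes was not tested. The C3 call was lost without FH124 (0.53, edgeR adjusted p = 0.062), FH68 (0.53, edgeR adjusted p = 0.0648) or F19M (0.56, edgeR adjusted p = 0.0561), and without the FH mice (0.58, edgeR adjusted p = 0.279).

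Between the other groups C3 did not pass. APOE3 had 1.93 CPM in F61N and 2.704, 2.77, 2.80 and 2.74 CPM in F37N, F39N, F10N and F64M. APOE4 had 3.53, 2.73, 3.02, 2.20 and 2.57 CPM in F95K, F78N, F58M, FH78 and FH66. The groups overlapped, and F95K and F58M of APOE4 were above every APOE3 mouse. The log2 fold change of APOE2 was 0.36 from APOE3 (edgeR adjusted p = 0.146) and 0.26 from APOE4 (edgeR adjusted p = 0.329). That of APOE4 from APOE3 was 0.11 (edgeR adjusted p = 0.66), and that of APOE4D from APOE4 was -0.36 (edgeR adjusted p = 0.418). The gene most like C3 was Cd109, a surface protein that binds transforming growth factor beta (Pearson 0.79), followed by Gfap itself (0.71).

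The receptors of the cleaved fragments passed the test in no comparison. C3ar1, the C3a receptor (chromosome 6, 122847140 to 122856157), ranged from 2.22 to 3.78 CPM over all 20 mice and its group means from 3.02 ± 0.538 CPM in APOE4D to 3.32 ± 0.460 CPM in APOE3 (SD, n = 5 each). Its adjusted p was 0.553 or more in all 6 comparisons by the edgeR test. C5ar1, the C5a receptor (chromosome 7, 16246743 to 16259540, 3.45 Mb from Apoe), had 12 to 47 reads per library, or 0.266 to 1.08 CPM. Its lowest and highest mice were both of APOE2, F42N and FH111. With so few reads, the 95% interval for APOE4 against APOE3 ran from -0.79 to 0.36 on the log2 scale, so sizeable differences were not detectable at this depth.

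Serping1, the C1 inhibitor that blocks the first proteases of the cascade (chromosome 2, 84765360 to 84775444), was uneven within APOE3. The APOE3 mice F61N, F37N, F39N, F10N and F64M had 8.22, 18.3, 11.0, 12.9 and 8.73 CPM, against 7.04 to 9.76 CPM in APOE4 and 7.73 to 9.44 CPM in APOE2. F37N and F10N were the highest of all 20 mice, and they also had the highest sums of border macrophage markers. Pericyte and fibroblast markers also summed highest in F37N (242.4 CPM), but F10N had 228.2 CPM, below FH124 of APOE2 (238.9 CPM) and F61N (238.8 CPM). The part of these cells was not tested. The log2 fold change was -0.45 for APOE4 against APOE3 (standard error 0.187, edgeR adjusted p = 0.108) and -0.45 for APOE2 against APOE3 (standard error 0.1845, edgeR adjusted p = 0.195). Without F37N, the highest mouse, they were -0.23 (edgeR adjusted p = 0.179) and -0.24 (edgeR adjusted p = 0.269). Without F61N the first passed, at -0.54 (edgeR adjusted p = 0.0328). The genes most like Serping1 were Mustn1, a musculoskeletal nuclear protein (Pearson 0.92), Gypc, a membrane glycoprotein of red cells (0.91), and Aebp1, a protein of the extracellular matrix (0.895).

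Cd59a, the membrane inhibitor that stops the assembly of the terminal pore, was the member with the largest difference. In APOE2 it stood at 13.7, 10.2, 10.6, 13.7 and 9.98 CPM in FH124, F74M, F42N, FH111 and F35J. In APOE3 it was 20.3, 21.2, 19.4, 21.4 and 18.5 CPM in F61N, F37N, F39N, F10N and F64M. In APOE4 it was 22.3, 18.1, 19.7, 20.3 and 21.1 CPM in F95K, F78N, F58M, FH78 and FH66. All 5 APOE2 mice lay below all 10 of these, with no overlap. The APOE4D mice F12M, FH85, FH68, F19M and FH51 had 17.6, 20.6, 19.98, 20.4 and 20.2 CPM, so APOE2 was below all 15 other mice. Within APOE2, FH124 and FH111 were above the other 3, which had 9.98 to 10.6 CPM.

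Cd59a fell by 42.2% in APOE2 against APOE3, from 20.2 ± 1.20 to 11.6 ± 1.90 CPM (SD, n = 5 each), a log2 fold change of -0.79 (standard error 0.084, edgeR adjusted p = 1.04e-06). It fell by 42.6% against APOE4 at 20.3 ± 1.58 CPM (-0.80, standard error 0.085, edgeR adjusted p = 8.38e-07) and by 41.1% against APOE4D at 19.8 ± 1.22 CPM (-0.76, standard error 0.080, edgeR adjusted p = 7.85e-08). Cd59a was the 1 of 9 members called in APOE2 against APOE4, or 11.1%, beside 5.89% of all genes in either direction, 2.6% lower and 3.29% higher. The groups did not overlap in CPM for 4.37% of all genes in APOE2 against APOE3, 7.62% in APOE2 against APOE4 and 5.46% in APOE2 against APOE4D. All 3 calls were kept under every other setting and every library left out, with log2 fold changes from -0.98 to -0.71. Without F61N the first was -0.79 (edgeR adjusted p = 1.02e-05), and without the FH mice it was -0.98 (edgeR adjusted p = 1.83e-08).

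No difference in Cd59a passed among the other groups. Its log2 fold change was 0.01 for APOE4 against APOE3 (95% interval -0.15 to 0.17) and -0.04 for APOE4D against APOE4 (-0.19 to 0.11). Cd59b, a second copy of the gene next to it (104069781 to 104085790) that is known in mice, was at 1.76 ± 0.30 CPM in APOE2 and at 1.70 ± 0.504 CPM in the APOE3 group (SD, n = 5 each), with a log2 fold change of 0.04 (standard error 0.166, edgeR adjusted p = 0.926). The copies share sequence, so their counts are uncertain, and Cd59a took 83.3% to 89.1% of the reads of the pair in APOE2 and 88.4% to 94.7% in APOE3. Of 22 genes tested within 1 Mb of Cd59a, 1 was called in APOE2 against APOE3, Lmo2 (lower), or 4.55%, near the 4.89% of all genes. None of the 5 oligodendrocyte markers was called in that comparison (median log2 fold change 0.01).

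The genes most like Cd59a over the 20 mice were Igtp, an interferon-induced GTPase on chromosome 11 (Pearson 0.95, or 0.62 on deviations from group means), Haus2 (0.95 and 0.63), a subunit of the augmin complex of the spindle, and Eif3j1 (0.95 and 0.73), a translation initiation factor subunit. Haus2 from 120609382 to 120621560 and Eif3j1 from 122028580 to 122053632 lie on chromosome 2, as Cd59a does. The likeness was thus weaker within groups than over all mice.

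**Figure D3:**
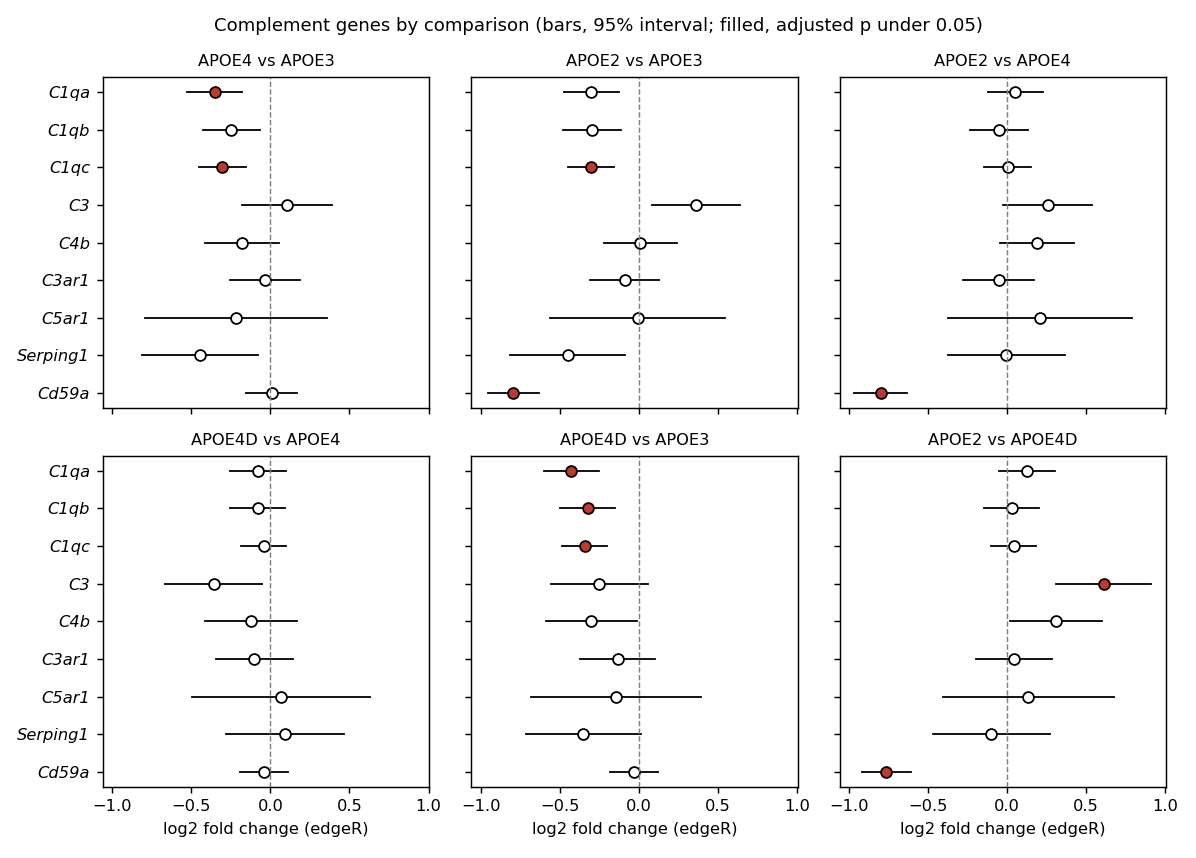
Log2 fold change of each of the 9 genes in the 6 comparisons (edgeR fit). Bars are the 95% interval by the normal distribution, and points are filled where the adjusted p was under 0.05. C1q lies below 0 in the comparisons with APOE3 in the denominator, and Cd59a lies between -0.80 and -0.76 in the 3 comparisons of APOE2.

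APOE4D was also compared with APOE4, whose genotype its label gives. No member was called, nor was any of the 21041 genes (0%) by edgeR, while 2293 had an unadjusted p under 0.05, DESeq2 called 34 and limma-voom 0. C3 was the 1 member with an unadjusted p under 0.05. The C1q chains had log2 fold changes of -0.08, -0.08 and -0.04, with 95% intervals within -0.26 to 0.10. The groups overlapped for all 9 members, and did not for 2.77% of all genes.

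The rest of the pathway was followed through 4 lists of 60 genes that hold the 9 members, of which 48 were tested in the fit of 20 libraries. Of the 17 genes that start the classical and lectin pathways, 14 were tested. In APOE4 against APOE3, 2 of them were lower (C1qa and C1qc) and none higher, or 14.3% beside the 21% of all genes called and the 10.2% called lower, and 12 of 14 were below 0, with a median log2 fold change of -0.20 beside -0.01 for all genes. In APOE2 against APOE3, C1qc was lower and Masp2 higher, or 14.3% beside 4.89% of all genes, with a median of -0.13 beside 0.00. In APOE2 against APOE4, Masp2 and Fcna were higher, or 14.3% beside 5.89% of all genes, and the median was 0.05.

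Masp2, the serine protease that cleaves C4 and C2 in the lectin pathway, was higher in most APOE2 mice. It stood at 0.742, 3.08, 5.42, 3.604 and 3.12 CPM in FH124, F74M, F42N, FH111 and F35J, against 0.751 to 1.34 CPM in APOE3, 0.639 to 0.981 CPM in APOE4 and 0.512 to 0.819 CPM in APOE4D. The APOE2 mouse FH124 was at the level of the other groups, and the other 4 were above all 15 mice of those groups. The log2 fold change was 1.58 against APOE3 (standard error 0.361, edgeR adjusted p = 0.0221), 1.97 against APOE4 (edgeR adjusted p = 0.00786) and 2.40 against APOE4D (edgeR adjusted p = 0.000258). The first was lost with limma-voom, in a fit of only the 2 groups and without F74M or F10N (edgeR adjusted p up to 0.0693 with a library left out). Fcna, the ficolin that binds sugars at the start of that pathway, had 8 to 38 reads per library and was higher in APOE2 than in APOE4 (0.95, edgeR adjusted p = 0.0253), a call lost without the FH mice (edgeR adjusted p = 0.238) and without any of F74M, F95K, F78N or FH66 (edgeR adjusted p up to 0.0989). Fcna was at 0.650 ± 0.153 CPM in APOE2, 0.342 ± 0.112 CPM in APOE4 and 0.565 ± 0.155 CPM in APOE4D (SD, n = 5 each). The difference of APOE2 from APOE4D was 0.21 (edgeR adjusted p = 0.773), and the call against APOE4 was lost with APOE4 and APOE4D joined (0.54, edgeR adjusted p = 0.186).

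Of 11 genes of the C3 step, the alternative and the terminal pathway, only 5 passed the filter, C3 and C8g among them. C8g, a chain of the terminal component C8, was lower in APOE4 at 0.812 ± 0.135 CPM than in APOE3 at 1.20 ± 0.198 CPM (SD, n = 5 each, log2 fold change -0.57, edgeR adjusted p = 0.0295) and higher in APOE2 than in APOE4 (0.67, edgeR adjusted p = 0.0275). It had 23 to 73 reads per library, and both calls were lost without the FH mice (edgeR adjusted p of 0.109 and 0.131) and each with 6 of the 15 libraries left out in turn. APOE4D, whose genotype label is also APOE4, had 1.17 ± 0.230 CPM of C8g (SD, n = 5), with no overlap with APOE4 and a log2 fold change of -0.04 from APOE3 (edgeR adjusted p = 0.931). With APOE4 and APOE4D joined, the calls were lost, at -0.28 (edgeR adjusted p = 0.246) and 0.39 (edgeR adjusted p = 0.187).

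Of 20 regulators, 17 were tested in the fit of the 3 genotypes. In APOE4 against APOE3, 3 were higher and 1 was lower, or 23.5% beside the 21% of all genes, with a median of -0.01. Csmd3, a large CUB and sushi domain protein of neurons, rose from 22.6 ± 2.58 to 28.6 ± 1.43 CPM (SD, n = 5 each, log2 fold change 0.34, edgeR adjusted p = 0.000759). Csmd1, a related inhibitor of complement (0.15, edgeR adjusted p = 0.0311), and Sez6l, another sushi domain protein of neurons (0.12, edgeR adjusted p = 0.0375), rose as well. Srpx2, which binds C1q, fell by 0.42 on the log2 scale (edgeR adjusted p = 0.03). The Csmd3 call was lost after the correction for length and GC content (0.11, edgeR adjusted p = 0.163). The calls of Csmd1, Sez6l and Srpx2 were each lost under at least 3 other settings, the FH mice left out among them, and with 7, 7 and 6 of the 15 libraries left out in turn. Sez6l had a log2 fold change of 0.02 in APOE4D against APOE3 (edgeR adjusted p = 0.84), and its call in APOE4 was lost with APOE4 and APOE4D joined. Csmd3 was also higher in APOE4D than in APOE3 (0.33, edgeR adjusted p = 0.000716) and lower in APOE2 than in APOE4 (-0.23, edgeR adjusted p = 0.0378) and APOE4D (-0.22, edgeR adjusted p = 0.0346), but both calls with APOE2 were lost without the FH mice (edgeR adjusted p of 0.495 and 0.451) and each with 8 libraries left out in turn. Csmd2, of the same family, was lower in APOE2 than in APOE4D (-0.17, edgeR adjusted p = 0.0415), a call lost under 4 of 10 other settings.

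Of 12 receptors and C1q-binding proteins, 11 were tested. Itgam, the alpha chain of complement receptor 3 on microglia, stood at 9.67, 6.51, 9.45, 9.32 and 9.67 CPM in the APOE2 mice FH124, F74M, F42N, FH111 and F35J, below all 5 APOE3 mice at 10.8 to 13.2 CPM. Its log2 fold change was -0.40 (standard error 0.089, edgeR adjusted p = 0.00779), and the call was kept under all 10 other settings and with each library left out. Itgam did not pass in APOE2 against APOE4 (-0.17, edgeR adjusted p = 0.3) or against APOE4D (-0.28, edgeR adjusted p = 0.0637). Nor did it pass in APOE4 against APOE3 (-0.23, edgeR adjusted p = 0.0724). Itgb2, its beta chain, was lower in APOE4D than in APOE3 (-0.28, edgeR adjusted p = 0.0243, lost under 3 of 10 other settings) and did not pass in APOE2 against APOE3 (-0.14, edgeR adjusted p = 0.351). C1qbp, a mitochondrial protein that also binds C1q, was lower than in APOE3 in APOE4 (-0.21, edgeR adjusted p = 0.00196), APOE2 (-0.15, edgeR adjusted p = 0.0476) and APOE4D (-0.17, edgeR adjusted p = 0.00885). The call in APOE2 was lost under 6 of 10 other settings, and with the 15 libraries left out in turn it was kept in only 3 fits. The call in APOE4 was lost after the correction for length and GC content (-0.10, edgeR adjusted p = 0.0942). That in APOE4D was lost after it too (edgeR adjusted p = 0.104), without the FH mice (edgeR adjusted p = 0.209) and with the series of animal IDs in the fit (edgeR adjusted p = 0.0503). Of this list, 9.09% were called in APOE4 against APOE3 beside the 21% of all genes, and 18.2% in APOE2 against APOE3 beside the 4.89%. The list medians were -0.04 and -0.02.

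**Figure D4:**
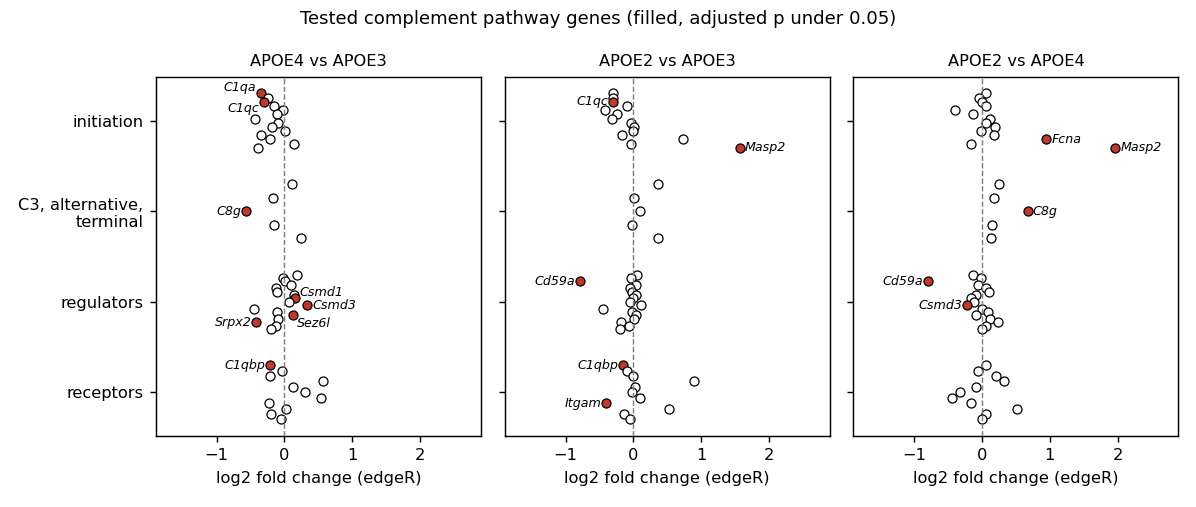
Log2 fold change (edgeR fit) of each tested gene of the 4 complement lists in the 3 comparisons of genotypes; filled and named points had an adjusted p under 0.05. Most genes lie near 0, with Masp2 highest in APOE2 (1.58 and 1.97) and Cd59a lowest (-0.79 and -0.80).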

How the data were processed

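RNA from 20 hemi-brains was sequenced as single reads of 50 bases from a stranded library. Raw counts per gene symbol were deposited by the authors, and only these were used. According to the submitters' processing notes, STAR 2.7.0 and featureCounts were run on GRCm38 (mm10). Whether counting used strand was not given in the sources used here.

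Tests on the counts were run in R 4.3.3 with edgeR 4.0.16. A gene entered a fit when over 40% of its libraries exceeded 0.1 CPM. After TMM scaling, edgeR's robust quasi-likelihood test ran over all genes, and p-values were adjusted by Benjamini-Hochberg and called under 0.05. APOE2, APOE3 and APOE4 were fitted together (15 libraries, 21022 genes), and APOE4D in a fit of all 20 (21041 genes). Each library is from 1 mouse, so p-values measure the spread between mice. The members, lists and tests were chosen with earlier results of these data known. From the 4 lists, genes past the threshold were named, up to 8 per list by smallest p. Genes most like a member were sought among those whose mean log2 CPM was 1 or more. Of these steps, only the main edgeR fit was tested on simulated counts. Over the comparisons it recovered 44.9% to 66.7% of changes of 1.25-fold and 90.5% to 97.2% of changes of 2-fold, with 2 to 11 false calls. Each run changed 200 genes, and genes of the lowest level were not among them. In the data 4422 genes were called in APOE4 against APOE3, so recovery there may differ.

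Alternatives were no filter, filterByExpr, size factors by RLE, DESeq2 1.42.0, limma-voom (limma 3.58.1), only the groups compared, a covariate for the FH series of IDs, the FH mice left out, 1 surrogate variable (sva 3.50.0), APOE4 and APOE4D joined, and each library left out. A correction for transcript length and GC content (loess span 0.3) was added after seeing the data. The authors' normalized counts and their comparison tables (fold changes and p-values) were not used.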

Additional observations from a re-analysis of the deposited data

Results flagged for a closer look

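In 2 of 36 sets of 5 mice (9 genes in 4 groups) 1 mouse stood far from the other 4 by Dixon's criterion, which chance alone meets in about 1 of 20 sets. C3 in APOE3 was low in F61N at 1.93 CPM, where the other 4 mice had 2.704 to 2.80 CPM. Without F61N, C3 in APOE2 against APOE3 had a log2 fold change of 0.28 (edgeR adjusted p = 0.206) instead of 0.36. F61N is also the mouse with 48 Xist reads. Cd59a in APOE4D was low in F12M at 17.6 CPM, where the other 4 mice had 19.98 to 20.6 CPM, and F12M remained above every APOE2 mouse.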

How the results depend on the processing

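In APOE4 against APOE3, 2 members were called, and 0 with the FH mice left out or after the correction for transcript length and GC content. Of all genes, 21%, 6.63% and 10.3% were called in these fits. In APOE2 against APOE3, 2 were called, 4 with DESeq2 (all 3 C1q chains and Cd59a) and 1 with a covariate for the FH series of IDs. Of all genes, 4.89%, 6.97% and 3.77% were called there. In APOE2 against APOE4D, 2 were called and 1 with the FH mice left out, beside 4.12% and 1.35% of all genes. With each library left out the count ranged from 2 to 4 in APOE4 against APOE3, from 1 to 4 in APOE2 against APOE3 and from 1 to 2 in APOE2 against APOE4D. The shares of all genes then ranged from 14.3% to 27.1%, from 2.69% to 11.9% and from 2.93% to 5.01%. Both counts of 4 members were without F61N. The cause of these changes was not tested. Leaving out the FH mice leaves 3 mice in APOE2 and in APOE4 and 2 in APOE4D. It lowered the number of all genes called from 4422 to 1403 in APOE4 against APOE3, from 1238 to 537 in APOE2 against APOE4, from 1769 to 461 in APOE4D against APOE3 and from 867 to 285 in APOE2 against APOE4D. The count for APOE4 against APOE3 was 2086 after the correction for length and GC content and 2916 with the covariate. With only the groups compared, counts were 637 instead of 1029 in APOE2 against APOE3, 1889 in APOE2 against APOE4 and 211 instead of 0 in APOE4D against APOE4, where no filter gave 10. No paired analysis was possible because the labels give no shared replicate numbers. No called member changed direction under these alternatives, and Cd59a kept its 3 calls under each of them. C5ar1, with at most 47 reads per library, is limited by depth.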

Other observations

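The ratio of the C1q chains was looked at after its values were seen, so it is given as a description. An exact permutation test of the ratios was run after that too, so its p-values are no support and are left out. Reads of C1qb per read of C1qa were 0.9655 to 1.015 in the 5 APOE3 mice, 0.958 to 1.03 in the 5 APOE2 mice, 1.04 to 1.09 in the 5 APOE4 mice and 1.01 to 1.13 in the 5 APOE4D mice. The APOE4 mice lay above the 10 mice of APOE3 and APOE2, and APOE4D overlapped with both. Reads of C1qc per read of C1qa overlapped between all 4 groups, from 0.790 to 0.943. The transcript of C1qa is 1087 bases long with a GC content of 59.2%, and that of C1qb 2532 bases with 53.6%. After the correction for length and GC content, the log2 fold changes of APOE4 against APOE3 were -0.15 for C1qa and -0.17 for C1qb, in place of -0.35 and -0.25. The part of length and GC content in the ratio was not tested.

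Within APOE2, genes did not single out the same mice. For Cd59a, FH124 and FH111 were the nearest to the other groups, at 13.7 CPM each. For Masp2, FH124 alone was at the level of the other groups (0.742 CPM), and FH111 at 3.604 CPM was with the rest of APOE2. For Itgam, F74M was lowest at 6.51 CPM.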
